A study of Bos taurus with 3 samples.

Results

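In the rumen of newborn (NB) calves, 69 of 26020 barcodes met a marker rule for plasmacytoid dendritic-like cells, and all 69 came from calf 3. The rule took barcodes with a UMI (unique molecular identifier, 1 captured RNA molecule) of the leukocyte genes PTPRC or CORO1A and with UMIs of at least 3 of the 7 genes SPIB, FCRLA, JCHAIN, BCL2L15, TCF4, IRF8 and PLAC8B. It left out barcodes with a CD3E UMI, which marks T cells, and barcodes with 2 or more UMIs of C1QA, C1QB and C1QC together (macrophages) or of FCER1A and CD1E together (other dendritic cells). The barcodes were thus chosen by the measured UMIs of these genes, so their levels are a description and were not tested. The samples were 3 Holstein calves (Bos taurus), taken 1 day after birth, with no treatment named in the labels and 1 droplet library per calf. The rumen, the first chamber of the ruminant stomach, was freed of its outer muscle and digested with trypsin and then with collagenases, dispase and hyaluronidase, so the cells are those that survived this digestion. Because only 1 calf held such cells, no test between cell classes was possible. Every interval below is an exact 95% interval that covers counting error only and says nothing of the spread between calves.

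Plasmacytoid dendritic cells are rare, round leukocytes that sense viral RNA and DNA through Toll-like receptors in their endosomes and answer with type I interferon. TCF4 and SPIB are transcription factors that set and keep their identity, IRF8 is shared with other dendritic cells, and JCHAIN, the joining chain of secreted antibodies, and FCRLA, an intracellular Fc receptor-like protein, are genes that they share with the B lineage. They present antigen less actively than conventional dendritic cells and reach tissues from the blood through adhesion molecules and chemokine receptors.

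Calf 1 gave 7529 barcodes and 82263092 UMIs, calf 2 gave 12043 barcodes and 89803289 UMIs, and calf 3 gave 11656 barcodes and 106145091 UMIs. After limits on genes, UMIs and mitochondrial reads, 4886, 10654 and 10480 barcodes were kept, of which 26, 97 and 895 had a PTPRC or CORO1A UMI and are called leukocytes here. The selected barcodes numbered 0 of 26 leukocytes in calf 1 and 0 of 97 in calf 2. A floor of 3 counts puts these shares at up to 11.5% and 3.09%, and the exact upper limits are 13.2% and 3.73%. In calf 3 they numbered 69 of 895 leukocytes, 7.71% (6.05 to 9.66), or 0.658% (0.513 to 0.833) of all kept barcodes. No leukocyte of calves 1 and 2 had a UMI of SPIB, FCRLA or JCHAIN. The median depths of the leukocytes were 10799, 5585 and 5703 UMIs in calves 1, 2 and 3, and the upper limit in calf 1 lies above the share in calf 3. The 69 barcodes held 440218 UMIs together, with a median of 5486 UMIs (814 to 21176) and 1891 genes, and a median of 3.95% mitochondrial UMIs. One of them carried a barcode sequence that was also kept in calf 1, where it belonged to an epithelial cell, while the libraries shared 11, 20 and 30 kept barcodes by pairs.

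For comparison, other leukocytes of calf 3 were classed by the genes that the rule excluded, as 293 FCER1A CD1E dendritic cells, 45 C1Q macrophage-like cells and 202 CD3E T cells, with median depths of 7251, 4909 and 3012.5 UMIs. The remaining 286 leukocytes of calf 3 met none of these definitions or more than 1 and entered no comparison of levels, apart from the 42 just outside the rule. These classes differ from the selected barcodes in the gate genes by construction. Levels are UMIs of a gene per 10000 UMIs of the summed barcodes of a class, and they are compared between classes and not between genes. A gene was compared where both classes together held at least 20 of its UMIs, and it was counted as higher or lower from a 2-fold difference.

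The markers were unevenly spread over the 69 barcodes, and they did not describe 1 kind of cell. PLAC8B was found in 66 of them, IRF8 in 62, TCF4 in 59, SPIB in 43, BCL2L15 in 32, FCRLA in 25 and JCHAIN in 17. With 3 genes enough to pass, 26 barcodes had exactly 3 of the 7 genes, 14 had 4, 9 had 5, 15 had 6 and 5 had all 7. The most frequent set of 3 was TCF4, IRF8 and PLAC8B, in 16 of the 26, and none of these genes is restricted to plasmacytoid dendritic cells. FCRLA, itself among the genes counted and so more frequent with more of them by construction, had a UMI in 24 of the 29 barcodes with 5 to 7 rule genes and in 1 of the 40 with 3 or 4. Depth did not follow this order, since the median was 5085 UMIs in barcodes with 5 to 7 rule genes and 6734 in those with 3 or 4. The median share of mitochondrial UMIs differed too, at 5.35% in the former and 2.92% in the latter. Several classical markers were at 0 UMIs in all 69 barcodes, among them LAMP5, EPHB1, PTCRA, CXCR3, GZMB, CLIC3, SMPD3 and SERPINF1. IL3RA, CLEC4C, LILRA4, BST2 and SCT had no row under these symbols in the count tables and were not analysed here. The name plasmacytoid dendritic-like is therefore not carried by the whole selection, and the barcodes are described below by their number of rule genes.

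**Figure D1:**
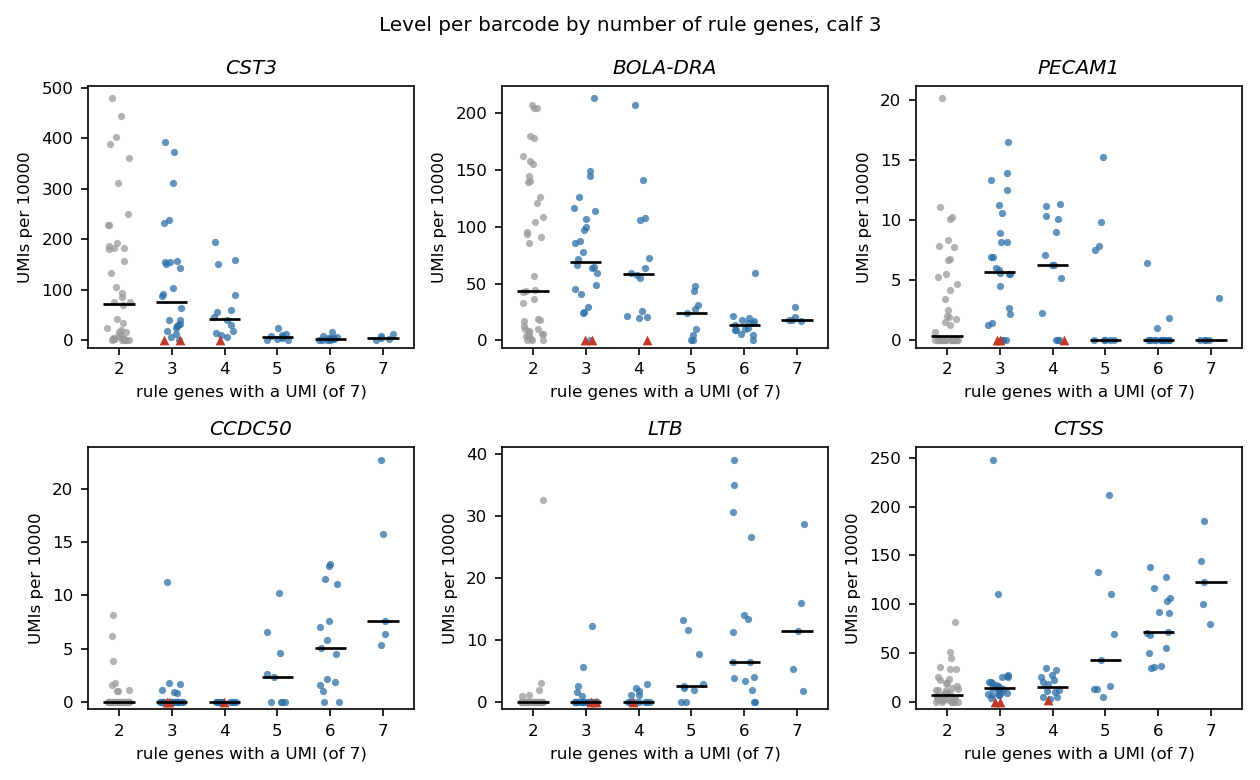
Level per barcode (vertical axes, UMIs per 10000 UMIs of the barcode) of single genes against the number of rule genes with a UMI (horizontal axes) in calf 3, with the 42 barcodes that had 2 rule genes and passed the other limits shown in grey beside the 69 selected ones. Black lines are medians and red triangles are the 3 JCHAIN-rich barcodes. CST3 and BOLA-DRA sit high up to 4 rule genes and low from 5 on, while CTSS, CCDC50 and LTB sit higher from 5 on.

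Barcodes with 5 to 7 rule genes and those with 3 or 4 differed in many of the listed genes that the rule had not used. This division follows the rule genes themselves and was drawn within 1 calf, so the values are given with no test. For the barcodes with 3 or 4 rule genes, 3 barcodes that held nearly all JCHAIN UMIs are set apart and described further on, which leaves 37.

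Antigen presentation and cathepsin genes, abundant in these cells, differed in level. CST3, the protease inhibitor cystatin C that is abundant in conventional dendritic cells, had a median of 60.9 UMIs per 10000 (0 to 393) in the 37 barcodes with 3 or 4 rule genes and of 3.93 (0 to 23.5) in the 29 with 5 to 7. The median was 146 in the FCER1A CD1E dendritic cells. BOLA-DRA, the alpha chain of the bovine MHC class II molecule DR, had medians of 66 and 16.7 in these 2 sets of barcodes and of 172 in the dendritic cells. The ranges overlapped in both genes, yet no barcode with 5 to 7 rule genes passed 23.5 for CST3 or 59.2 for BOLA-DRA. CTSS, a protease that trims the MHC class II invariant chain, ran the other way, with medians of 15.0 (2.81 to 248) and 79.7 (5.24 to 211), against 18.5 in the dendritic cells. CD74, the invariant chain itself, had summed levels of 79.4 (75.9 to 82.9) and 40.1 (36.9 to 43.5).

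Several genes tied to plasmacytoid dendritic cells in other species were found in more of the barcodes with 5 to 7 rule genes, and others, such as PLD4, were found on both sides. LTB, the cytokine lymphotoxin beta, was found in 25 of 29 barcodes with 5 to 7 rule genes, 10 of 37 with 3 or 4 and 24 of 293 dendritic cells. Its summed levels were 9.42 (7.91 to 11.1), 0.474 (0.245 to 0.828) and 0.127 (0.0844 to 0.183). After each barcode was thinned to 2000 UMIs, which left 27 of 29, 38 of the 40 with 3 or 4 rule genes and 285 of 293 barcodes, LTB was found in 63.0%, 7.89% and 2.46% of them, so the difference remained at equal depth. CCDC50, a cytoplasmic signalling protein abundant in human plasmacytoid dendritic cells, was at 5.43, 0.277 and 0.263, and BLNK, an adaptor of B cell and plasmacytoid dendritic cell receptors, was at 2.41 and 0.295 in the first and the last group and at 0 UMIs in the 37 barcodes. CCR7, which guides cells to lymph nodes, was found in 15, 2 and 16 barcodes.

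Of the 13 plasmacytoid surface and effector genes that could be compared, the 69 barcodes together were at least 2-fold higher than the dendritic cells in 6 and lower in 2, where 7.12% of all 7918 genes compared were higher and 10.6% lower. The median log2 difference of the list was 0.94, beside -0.04 over all genes compared. The higher genes included LTB, CCDC50, ITM2C, BLNK and PTPRCAP, and the 2 lower ones NRP1 and SCAMP5. With the barcodes with 5 to 7 rule genes alone, 9 were higher and 1 lower, where 17.0% of all 7627 genes compared were higher and 8.56% lower, and the median log2 difference was 1.48, beside 0.24 over all genes. For these counts, fewer than 3 UMIs were raised to 3. In this smaller sum, that can by itself count a gene as higher where dendritic cells held few of its UMIs. The counts and medians of these barcodes are therefore not comparable with those of the 69. PLD4, an endosomal nuclease, was found in all 37 barcodes with 3 or 4 rule genes and in 28 of the 29 with 5 to 7, and was 1.92-fold higher (1.72 to 2.13) in the 69 barcodes and RGS1, a regulator of G protein signalling, was at 15.7 against 29.0, with 30.4 in barcodes with 5 to 7 rule genes and 9.84 in the 37 with 3 or 4.

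Among the 8 transcription factor genes compared, 2 were higher and 1 lower than in the dendritic cells, and the latter is near the 10.6% of all genes. RUNX2, which acts in plasmacytoid dendritic cell development and migration, was at 1.66 (1.3 to 2.09) against 0.0635 (0.0347 to 0.106), and it was found on both sides of the division, at 2.75 and 1.26. BCL11A, a regulator upstream of TCF4, was at 0.363 against 0.154, with UMIs in 14 of the 29 barcodes with 5 to 7 rule genes and in none of the 37. TCF12 was the lower one, and the median log2 difference over the 8 genes was 0.42. IRF7, the factor that drives type I interferon genes, was at 0.795 in the 69 barcodes and at 1.11 in the dendritic cells.

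Of 15 genes of nucleic acid sensing compared, 2 were higher than in the dendritic cells and 0 lower (7.12% and 10.6% of all genes), with a median log2 difference of 0.35. SLC15A4, an endosomal transporter that Toll-like receptor signalling depends on, was at 1.36 against 0.345 and in 20 of the 29 barcodes with 5 to 7 rule genes. HSP90B1, the chaperone of Toll-like receptors, was the other, at 13.2, but its level was 3.24 without the 3 JCHAIN-rich barcodes described further on, against 3.56 in dendritic cells. UNC93B1, which brings these receptors to the endosome, was at 7.77 (6.40 to 9.34) in barcodes with 5 to 7 rule genes, 2.85 (2.23 to 3.58) in those with 3 or 4 and 2.35 in dendritic cells. TLR7 and TLR9, the receptors for single-stranded RNA and for unmethylated DNA, were rare in all classes, at 0.318 and 0.136 in the 69 barcodes and 0.363 and 0.0816 in dendritic cells.

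No interferon ligand of the 6 with a row in the tables had a UMI in the 69 barcodes. The type I interferons IFNB1, IFNAC, IFNAH, IFNA16 and IFNW1 had no row under these symbols and were not analysed here. Of 18 genes that answer to interferon, 0 were higher and 5 lower than in dendritic cells (7.12% and 10.6% of all genes), with a median log2 difference of -0.43, and 0 of 13 were higher and 8 lower than in macrophage-like cells, where 10.8% and 13.4% of 4290 genes were higher and lower. MX1, an antiviral GTPase, was at 0.454 (0.278 to 0.702) against 3.21 in dendritic and 6.94 in macrophage-like cells. IFI6 was at 2.70 against 5.30 and 12.8. Against T cells, 1 of 16 was higher and 4 were lower, with a median log2 difference of -0.21, where 14.5% and 13.0% of all 6056 genes were higher and lower. ISG15, a ubiquitin-like modifier, stood apart at 4.34, above the 2.77 of dendritic cells and below the 7.61 of macrophage-like and the 6.17 of T cells.

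Some genes were found in more of the 37 barcodes with 3 or 4 rule genes than of the 29 with 5 to 7, though not in these alone. PECAM1, an adhesion molecule of endothelium and some leukocytes, was found in 31 of these 37 barcodes, in 8 of 29 with 5 to 7 rule genes and in 22 of 293 dendritic cells. Its summed level was 5.93 (5.02 to 6.96) in the first, 2.54 (1.79 to 3.51) in the second and 0.277 (0.212 to 0.355) in the third. AXL, a receptor tyrosine kinase that marks a dendritic population between plasmacytoid and conventional cells in humans, was found in 29 of 37, 6 of 29 and 172 of 293 barcodes. CD5, a surface protein of T cells and some B cells, was found in 26, 14 and 38. Its summed level was 1.42 in the 37 barcodes and 1.38 in the 37 and the 29 together, so its level differed little between them. These counts of barcodes were not taken at equal depth, with medians of 6632 UMIs in the 37 and 5085 in the 29. The transcription factor GCM2, known from the parathyroid, was found in 17 of 37, 2 of 29 and 3 of 293 barcodes, and the secreted protein WFDC2 in 16, 5 and 2.

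Counted by barcode, these genes often occurred together. Among the 66 barcodes without the JCHAIN-rich ones, PECAM1 was found in 39 and AXL in 35, and 32 had both. PECAM1 was also in all 19 barcodes with GCM2 and in 20 of 21 with WFDC2. LTB was found in 35 and CCDC50 in 29, and 24 had both, while 15 of 17 barcodes with CCR7 also had LTB. LTB and PECAM1 met in 12 barcodes, and LTB and GCM2 in 4. These counts are a description within 1 library, and each gene's count also depends on the depth of the barcode.

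Just outside the rule, 42 barcodes of calf 3 had 2 of the 7 genes, with a median depth of 6231.5 UMIs. LTB was found in 5 of these 42, CCDC50 in 8, PECAM1 in 21 and AXL in 13, and their median CST3 level was 72.8. Just inside the rule, the 26 barcodes with exactly 3 genes had a median CST3 level of 75.8, and of BOLA-DRA of 68.8, where those just outside had 43.7. These 26 include JCHAIN-rich barcodes with 4720 and 21176 UMIs, described further on, which had 0 and 1 UMI of CST3 and 0 and 1 of BOLA-DRA. With them included, the median of CST3 was nearly equal on both sides of the limit, and that of BOLA-DRA was lower outside it. The summed levels of BOLA-DRA, again with them included, were 75.3 outside the limit and 76.3 in the barcodes with exactly 3 genes. The JCHAIN-rich barcodes lower the levels of the 26, and the values without them are not given here.

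Genes of antibody-secreting cells came from very few barcodes. JCHAIN was at 22.2 UMIs per 10000 (20.9 to 23.7) in the 69 barcodes, but 94.5% of its 979 UMIs lay in 3 barcodes with 190, 306 and 429 UMIs, and the next highest had 8. These 3 barcodes also held 18, 122 and 61 UMIs of MZB1, an endoplasmic reticulum protein of plasma cells, and 428, 1760 and 1035 of ENSBTAG00000001219, a gene with no symbol in the tables. They had 4720, 15828 and 21176 UMIs in all, and 0, 1 and 1 UMI of CST3, with no UMI of PLAC8B, and passed the rule with 3, 4 and 3 rule genes. POU2AF1, a coactivator of the B lineage, and TNFRSF17, a survival receptor of plasma cells, were at 2.88 and 0.959 in them. The dendritic cells were at 0.802 for JCHAIN, nearly all of it from 1 barcode with 173 UMIs. Without the 3 barcodes, JCHAIN was at 1.36, all of it in barcodes with 5 to 7 rule genes (3.71, 2.79 to 4.84), and MZB1 was at 0.276. The markers of these 3 barcodes therefore went against the label of the selection.

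**Figure D2:**
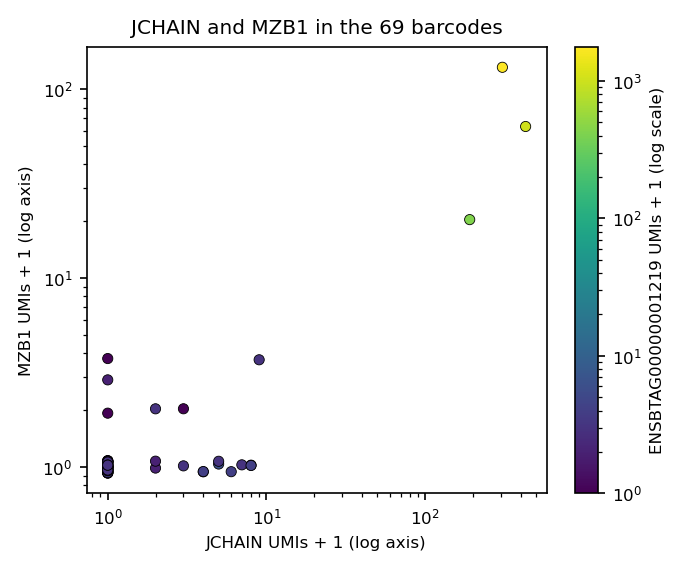
UMIs of JCHAIN (horizontal, plus 1, log axis) and MZB1 (vertical, plus 1, log axis) in each of the 69 barcodes, coloured by the UMIs of ENSBTAG00000001219. The 3 barcodes with 190 to 429 JCHAIN UMIs stand apart from the others, of which none has more than 8.

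B lineage and secretory genes were counted with and without them. Of the 4 B cell genes compared, 3, CD79A and CD37 among them, were higher than in dendritic cells and 0 lower, with the same count when the 3 barcodes were left out, where 6.99% of all 7882 genes compared were higher and 9.96% lower. CD79A, a signalling chain of the B cell receptor, was at 1.2 (0.902 to 1.57) against 0.0272, and at 2.41 in barcodes with 5 to 7 rule genes and 0.514 in the 37 with 3 or 4. PAX5, EBF1, VPREB3, FCRL1 and CR2, which define mature and developing B cells, were at 0 UMIs in the 69 barcodes. The 16 genes of the B cell list summed to 5.68 in the 69 barcodes, 8.32 in those with 5 to 7 rule genes, 3.95 in the 37 and 0.780 in dendritic cells, with 11 of the 16 found. They summed to 3.42 in T cells and 1.90 in macrophage-like cells. Against T cells, 2 of 5 B cell genes were higher and 2 lower (14.5% and 13.0% of all genes), with a median log2 difference of -0.305. Against macrophage-like cells, 3 of 4 were higher and 1 lower (10.8% and 13.4%). The 10 genes of the plasma cell list summed to 71.9 in the 3 JCHAIN-rich barcodes, 5.22 in those with 5 to 7 rule genes, 2.57 in the 37 and 3.57 in dendritic cells. Of 7 plasma cell genes compared, 3 were higher and 1 lower, and 1 higher and 1 lower without the 3 barcodes. Of 29 genes of the secretory pathway, 15 were higher than in dendritic cells and 0 lower, and the median log2 difference was 1.06. Without the 3 barcodes 5 were higher and the median was 0.39. SPCS2 of the signal peptidase was at 8.04 (6.65 to 9.64) in barcodes with 5 to 7 rule genes, 3.64 (2.93 to 4.46) in the 37 with 3 or 4 and 2.43 in dendritic cells. Against macrophage-like cells 17 of 28 secretory genes were higher and 0 lower (10.8% and 13.4% of all genes), and against T cells 16 of 29 were higher and 1 lower (14.5% and 13.0%). Without the 3 barcodes these counts were 6 of 27 higher and 0 lower against macrophage-like cells (10.6% and 12.8% of all 4104 genes) and 6 of 28 higher and 1 lower against T cells (15.7% and 13.2% of all 5967 genes).

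A further 4 barcodes carried another set of markers. They held 8 to 14 UMIs of DNASE1L3, a secreted nuclease, where the next highest barcode had 2, and 4 to 11 UMIs of BATF3, a transcription factor of cross-presenting dendritic cells. CLEC9A, a receptor of the same dendritic cells, was found in 3 of the 4. They had 277 to 357 UMIs of CST3 and 103 to 173 of BOLA-DRA, 1 to 4 of PLAC8B, none of SPIB or FCRLA, and exactly 3 rule genes each. One of them also had 15 UMIs of PLVAP and 3 of VWF, which are endothelial genes.

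Over all 69 barcodes, 1 of 14 MHC class II and costimulation genes was higher and 5 were lower than in dendritic cells (7.12% and 10.6% of all genes), with a median log2 difference of -0.92. All 10 that could be compared with T cells were higher, beside 14.5% of all genes. BOLA-DRA was at 53.8 (51.6 to 56.0) against 157 in dendritic cells, 104 in macrophage-like cells and 0.126 in T cells. Of 13 conventional dendritic cell genes, 1 was higher (SIGLEC1, a sialic acid-binding receptor that macrophages also carry) and 5 were lower (CST3, SIRPA, BATF3, ID2 and CD207), and 9 of 11 were above T cells. In the list of mature dendritic cells, LAMP3, CCR7 and FSCN1 were higher and 0 of 6 lower. LAMP3 was at 0.591 against 0.0589, and the costimulatory genes CD83 and CD86 were at 4.59 and 1.02 against 8.78 and 2.00.

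**Figure D3:**
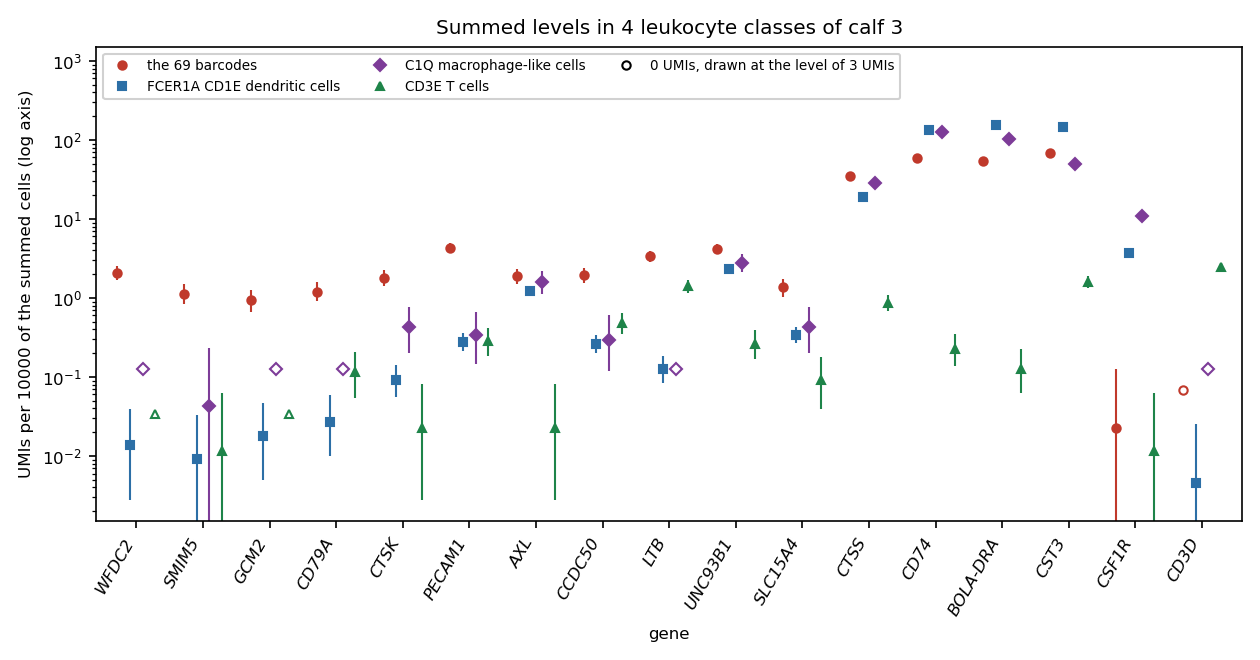
Summed levels (UMIs per 10000, log axis) of single genes in the selected barcodes and in the FCER1A CD1E dendritic, C1Q macrophage-like and CD3E T cells of calf 3, with exact Poisson intervals as bars and open symbols for genes at 0 UMIs, drawn at the level of 3 UMIs. CD74 and BOLA-DRA lie below dendritic and above T cells, and CCDC50, LTB and PECAM1 lie above dendritic cells.

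Of 12 macrophage genes compared with macrophage-like cells, 0 were higher and 10 lower (median log2 difference -3.57), and against dendritic cells 2 of 10 were higher and 7 lower. The shares of all genes higher and lower were 10.8% and 13.4% against macrophage-like cells, 7.12% and 10.6% against dendritic cells and 14.5% and 13.0% against T cells, also for the counts that follow. CSF1R, the receptor for macrophage growth factors, was at 0.0227, from 1 UMI, against 3.67 in dendritic and 10.8 in macrophage-like cells. FCER1G, an Fc receptor signalling chain, was at 11.8 (10.8 to 12.9) against 5.40 in dendritic cells, while TYROBP, a similar adaptor, was at 2.32 against 11.3. Of 20 T and NK cell genes compared with T cells, 0 were higher and 18 lower, and CD3D, CD3G, CD8A and CD8B were at 0. Against dendritic cells, CD5, CD2 and GNLY of 7 such genes were higher and 2 lower. GNLY, a granule protein of cytotoxic cells, was at 0.568, and at 0.201 without the 3 JCHAIN-rich barcodes, where it had too few UMIs to be compared. CD163, CPA3 and MS4A2, of macrophages and mast cells, were at 0, the 1 mast cell gene compared was lower, and of 3 neutrophil genes 1 was higher and 1 lower.

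Cytokine and chemokine genes were more often below than above the levels of dendritic and macrophage-like cells. Of 12 compared with dendritic cells, 3 were higher and 6 lower, and of 13 compared with macrophage-like cells, 1 was higher and 9 lower, beside 10.8% and 13.4% of all genes. IL1B and CXCL8, which recruit and arouse neutrophils, were each at 0.204, against 2.46 and 2.56 in dendritic cells. Of 13 genes of migration and adhesion, 3 were higher (CCR7 and ITGAL among them) and 2 lower, the latter near the 10.6% of all genes. ITGAL, the alpha chain of the integrin LFA-1, was at 0.568 against 0.00453, the latter from 1 UMI, a ratio of 125 with an interval of 20.5 to 5143. CX3CR1, a chemokine receptor of monocytes and macrophages, was at 0.182 against 2.10. CXCR4, the receptor for the chemokine CXCL12, was at 11.5 in barcodes with 5 to 7 rule genes and 3.20 in the 37 with 3 or 4.

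**Figure D4:**
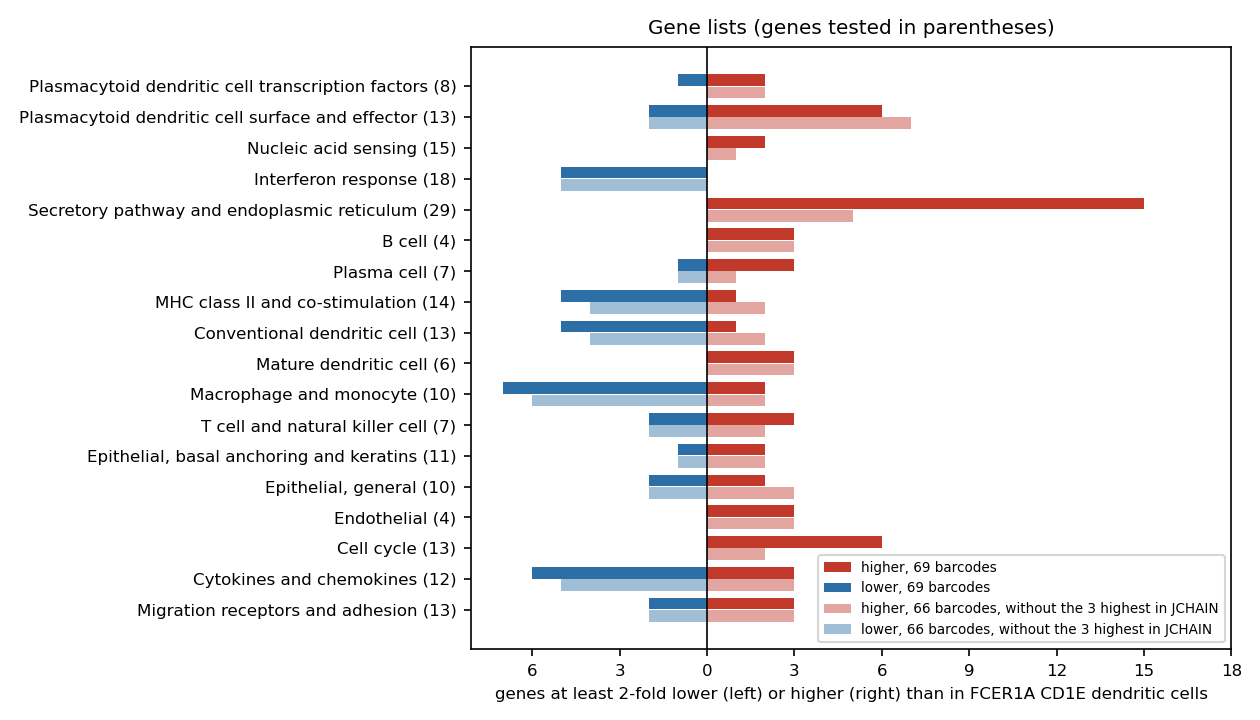
Number of genes per list (bars) that were at least 2-fold higher (right) or lower (left) in the selected barcodes than in FCER1A CD1E dendritic cells, for all 69 barcodes and without the 3 JCHAIN-rich barcodes, with the number of genes compared in parentheses. Secretory genes go from 15 to 5 higher without the 3 barcodes, while plasmacytoid surface genes go from 6 to 7.

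Across all genes, the 25 with the largest ratio against the 3 other leukocyte classes pooled were between 15.0 and 323-fold higher, among genes found in at least 20% of the 69 barcodes. Of these, 4, FCRLA, SPIB, JCHAIN and BCL2L15, were genes of the rule, and 6 others have no symbol in the tables. The leading one, ENSBTAG00000047700, was at 5.84 UMIs per 10000, found in 71.0% of the barcodes and 323-fold higher (146 to 888). WFDC2 was 229-fold higher (75.8 to 1130), GCM2 77.3-fold (28.0 to 297) and SMIM5, a small membrane protein, 94.2-fold (34.6 to 359). MAG, a sialic acid-binding lectin known from myelin, was 188-fold higher against 1 UMI in the other classes, with an interval of 30.8 to 7740. RNF175, a ring finger protein, had no UMI in the other classes, and its ratio against a floor of 3 counts over those classes was 67.8, with a lower limit of 51.5. PLXNA2 (34.5-fold), SLC27A3 (30.2), CD79A (25), ADGRG5 (20.0), CTSK (18.6), ELN (18.4), C1R (15.4), PGA5 (15.1) and PECAM1 (15.0) followed. PLXNA2 is a semaphorin receptor, SLC27A3 a fatty acid transport protein, ADGRG5 an adhesion receptor, ELN elastin and C1R a complement protease. Of the 21 that are not genes of the rule, 13 had the higher level in the barcodes with 5 to 7 rule genes and 8 in the 37 with 3 or 4. CTSK, a collagen-degrading cathepsin, was found in 26 of 29 and 7 of 37. The ratio of ENSBTAG00000001219 was 65.0 over all 69 barcodes and 1.95 without the 3 JCHAIN-rich ones, and that of JCHAIN was 40.5 and 2.47. Of the 182 JCHAIN UMIs in the pooled classes, 177 lay in dendritic cells, nearly all of them in the 1 barcode described above. That barcode was kept in the comparison, so the 2.47 rests largely on it, and the ratio without it is not given here.

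Genes at the other end were those of the classes left out by the rule. Among the 15 lowest, FCER1A, CD3E and CD1E were used by the rule and 4 have no symbol, and the other 8 were RETN, CSF1R, RBP4, CLEC5A, CCL5, GRO1, CLEC4A and NKG7. Of these, CCL5 and NKG7 are genes of cytotoxic lymphocytes, and CLEC5A and CLEC4A are lectin receptors of myeloid cells.

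KRT15 and COL17A1, genes of basal epithelial cells, were measured for doublets, droplets that hold an epithelial cell beside a leukocyte. Barcodes classed as epithelial, with no division into layers, made up most kept barcodes. KRT15, a basal keratin, was at 11.9 UMIs per 10000 (10.9 to 13.0) in the 69 barcodes, 12.7 in dendritic cells, 14.6 in macrophage-like cells, 24.7 in T cells and 101 in epithelial cells. COL17A1, a collagen of the hemidesmosome, was at 1.23, 1.81, 2.16, 3.74 and 12.5 in the same order. In barcodes thinned to 2000 UMIs, 52.3% (39.5 to 64.9) of 65 selected ones had a KRT15 UMI, against 47.7%, 57.1%, 61.2% and 99.7% in the other classes, and 12.3% (5.47 to 22.8) had a COL17A1 UMI, against 11.2%, 14.3%, 18.8% and 87.4%. Unthinned, 81.2% had KRT15 and 17.4% COL17A1, at the median of 5486 UMIs, against 99.9% and 98.4% of epithelial cells at 8078. The thinned shares of both genes lay within the range of the other leukocyte classes, and the summed levels lay below it. The ratio of KRT15 to KRT5 UMIs was 2.20 in them and 2.08 to 2.53 in the other classes, epithelial cells included. The ratio of KRT15 to KRT14 UMIs varied more, at 5.66 in the 69 barcodes, 12 in dendritic, 3.56 in macrophage-like, 5.62 in T and 7.83 in epithelial cells, and it was 4.49 in barcodes with 3 or 4 rule genes and 18 in those with 5 to 7, the last from 8 KRT14 UMIs.

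Few barcodes held most of this RNA. The median KRT15 level per barcode was 2.65, against 102 in epithelial cells, and 13 barcodes had no KRT15 UMI. In 7 of the 69, 10.1%, KRT15 reached at least 25.4, which is 0.25 of the epithelial median, and these 7 held 80.6% of the KRT15 UMIs. All 7 also had COL17A1, which was found in 12 barcodes altogether. The share above the same level was 10.6% in dendritic cells, 8.89% in macrophage-like cells and 10.9% in T cells. In the other 62 barcodes, KRT15 was at 2.70. The nearest barcode below the limit had 24.6, from 2 of its 814 UMIs. The 14 basal epithelial genes summed to 23.3 in the 69 barcodes, with KRT15 the most abundant, against 22.7, 31.0 and 47.6 in dendritic, macrophage-like and T cells and 176 in epithelial cells. What part epithelial RNA had in the other levels was not tested. Of 11 basal epithelial genes compared with dendritic cells, 2 were higher and 1 lower, and of 10 general epithelial genes 2 were higher and 2 lower, beside 7.12% and 10.6% of all genes.

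**Figure D5:**
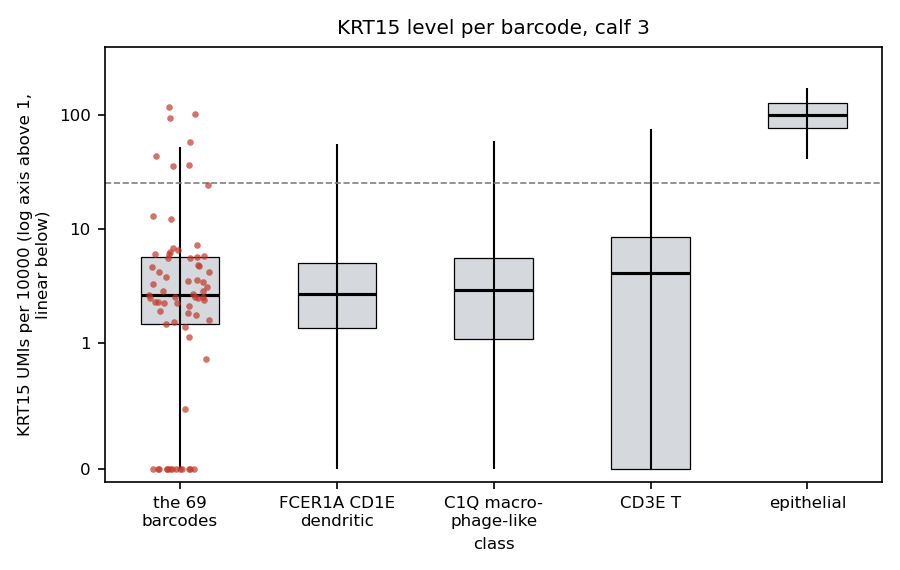
KRT15 level of each barcode (UMIs per 10000, log axis above 1 and linear below) in the selected barcodes, the other 3 leukocyte classes and the epithelial cells of calf 3. Most leukocyte barcodes lie far under the epithelial median of 102, and 7 of the 69 selected ones lie at or above 25.4.

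The 8 endothelial genes summed to 5.18 in the 69 barcodes, of which PECAM1 made 4.25, and all 8 were found, while barcodes with 5 to 7 rule genes had UMIs of 2 of them. Of 4 endothelial genes compared with dendritic cells, PECAM1, PLVAP and EMCN were higher and 0 lower, beside 7.12% and 10.6% of all genes. The barcode with 15 PLVAP UMIs held most of that gene's UMIs, while PECAM1 was spread over 39 barcodes. Of 3 fibroblast genes, 1 was higher and 2 lower, and the 1 gene of microfold cells that could be compared differed by less than 2-fold.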

How the data were processed

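Rumen cells of 3 newborn Holstein calves were loaded on the 10x Chromium platform (3′ v3 chemistry), and the authors aligned the reads to ARS-UCD1.2 with Cell Ranger 3.1.0. The deposited values are UMI counts per gene and barcode over 27270 genes, as counted, with neither normalization nor a quality filter. Here, barcodes with 500 to 4000 genes, at most 50000 UMIs and at most 40% of UMIs in the 13 mitochondrial coding genes were kept, in place of the clusters of the study. Doublets were scored with Scrublet in scanpy 1.11.5 (expected rate 0.06), whose automatic limit marked 0, 0 and 2 barcodes and so did not work; none was removed. Classes were cut by UMIs, and counts were summed per class within calf 3, because calves 1 and 2 gave no member. The tests planned over calves could not be made, and ratios of summed levels carry exact binomial intervals, levels exact Poisson intervals and shares Clopper-Pearson intervals, at 95% and for counting error only. In printed ratios, a class with no UMI of a gene was set to a floor of 3 counts. For the counts of genes past 2-fold and for the ranking of genes, fewer than 3 UMIs in either class were raised to 3. Shares were also taken after thinning to 2000 UMIs. Genes named outside the lists are the 25 with the largest ratio against the 3 other leukocyte classes together among those found in at least 20% of members, and the 15 lowest. Of 344 listed genes, 327 had a row, and some genes of the lists and of the 25 are not reported here by name. The members, the lists (plasmacytoid dendritic cell factors and surface genes, nucleic acid sensing, interferon ligands and response, secretory pathway, MHC class II, B, plasma, conventional and mature dendritic, macrophage, T and NK, mast, neutrophil, endothelial, fibroblast, microfold and epithelial genes, cytokines, migration and cell cycle) and the barcodes set apart by JCHAIN, DNASE1L3 or the number of rule genes were chosen with earlier results of these data known. Python 3.11.15, numpy 2.4.6, scipy 1.17.1 and pandas 2.3.3 were used, and the ratios were tested on simulated data.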

Additional observations from a re-analysis of the deposited data

How the results depend on the processing

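The number of selected barcodes depended on how many rule genes were asked for, on depth and on calf 3. With at least 2 of 7 genes it was 118 (2, 5 and 111 in calves 1, 2 and 3), with at least 4 it was 43, and with the rule applied after thinning to 2000 UMIs it was 36. It was 68 with at most 20% mitochondrial UMIs, 71 without an upper limit on genes and 66 without the 6% of barcodes with the highest doublet scores. Leaving out each calf in turn gave 0 to 69 barcodes, with 0 without calf 3. The number of genes past 2-fold was 1407 against dendritic, 1040 against macrophage-like and 1668 against T cells. Without barcodes that held KRT5 or KRT14, which left 23 selected ones, it was 811, 481 and 857, and without the minimum of 20 UMIs it was 2938, 2167 and 2639. The other alternatives, of which scaling by the median of ratios, leaving out the 3 JCHAIN-rich barcodes, the barcodes rich in KRT15 or the barcode shared with calf 1, and taking barcodes with 5 to 7 rule genes alone were chosen after seeing the data, kept these counts within 1.5 times. Leaving out the Scrublet calls, calf 1 or calf 2, or asking for more cells in a sum, removed none of the barcodes compared. These alternatives could not move the counts, nor the shares with KRT15 or COL17A1 below. With 5 to 7 rule genes alone, 1293 genes were counted as higher and 653 as lower than in dendritic cells (66.4% higher, against 40.1% over all 69). In this smaller sum, the floor of 3 counts can by itself count a gene as higher where dendritic cells held few of its UMIs. These shares are therefore not comparable. The share with a KRT15 UMI was 29.4% after thinning to 1000 UMIs and 81.2% without thinning, and 50.0% to 61.0% otherwise. That with a COL17A1 UMI stayed between 9.68% and 17.4%. Of the ratios of the 25 named genes, 12 moved beyond their counting interval without barcodes that held KRT5 or KRT14 (to 9.33 to 450), 8 with 5 to 7 rule genes alone (to 3.03 to 51.3), 3 with at least 4 rule genes (to 25 to 31.2) and 2 without the JCHAIN-rich barcodes (to 1.95 and 2.47), and 1 each without the highest doublet scores and without the KRT15-rich barcodes. The 2.47 is that of JCHAIN, and the dendritic barcode that held nearly all JCHAIN UMIs of its class was kept in that comparison. Depth limits both measures, since 4 of the 69 barcodes were too shallow for thinning and a gene at 0 UMIs may be present below the level of 3 counts. No paired analysis was possible because all selected barcodes came from 1 calf, and for the same reason the planned count models over calves and their alternatives in normalization were not run.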

Other observations

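Some genes of cycling cells belonged to few of the 69 barcodes. Of 13 cell cycle genes compared with dendritic cells, 6 were higher and 0 lower (7.12% and 10.6% of all genes), but without the 3 JCHAIN-rich barcodes 2 of 11 were higher (6.99% of all genes). MKI67, a marker of proliferation, was found in 4 barcodes, of which 2 were JCHAIN-rich, with 12 and 7 UMIs. The other 2, with 5 and 3 UMIs of MKI67, were among the KRT15-rich barcodes, with 32 and 21 UMIs of KRT15. The 15 genes of the list summed to 26.8 UMIs per 10000 in the JCHAIN-rich barcodes, 5.57 in those with 5 to 7 rule genes and 6.52 in the 37 others with 3 or 4. Against T cells, 0 of 13 were higher and 6 lower (14.5% and 13.0% of all genes).

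IL7R, the interleukin 7 receptor, and CD2, an adhesion receptor of T and NK cells, were found mainly in barcodes with 5 to 7 rule genes, at 2.06 and 1.31 UMIs per 10000, against 0 UMIs and 0.0395 in the 37 with 3 or 4. IL7R had a UMI in 16 of the 29. CD44, a hyaluronan receptor, was at 8.87 and 2.77 in the same groups. CD3D, CD3E and CD3G were at 0 in all of them, the second by the rule.

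Of the 69 barcodes, 3 (4.35%) were among the 6% with the highest Scrublet scores of their library, against 10.6% of dendritic, 4.44% of macrophage-like and 9.41% of T cells. In calf 3, 2 further barcodes met the marker rule but had more than 4000 genes and were not kept.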
